A study of Homo sapiens with 9 samples.

Results

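The genes described here are 41 genes linked to the amino acid response, measured in LNCaP cells treated with recombinant neuregulin 1 (NRG1). They are 7 stress regulators, 5 stress effectors, 9 enzymes of amino acid and one-carbon synthesis, 8 amino acid transporters and 12 cytosolic aminoacyl-tRNA synthetases. A gene entered by its symbol and by having at least 10 counts in 3 or more of the 9 libraries, and 41 of 41 did so, of 37351 genes in the count table. The symbols were listed by their known roles, at a time when earlier results of these data were known.

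LNCaP is an established human prostate carcinoma cell line that grew out of a metastasis, and NRG1 is a ligand of the receptor HER3. In all 3 groups the cells had been kept without serum and calcium for 6 to 12 h, and NRG1 was given at 15 ng/mL. RNA was taken after 0, 12 and 24 h in 3 biological replicates per time. The comparisons address which transcripts differed in level at 12 and 24 h of NRG1. Libraries of cells left without NRG1 for 12 or 24 h were not analysed here, so NRG1 and the time spent in the medium without serum and calcium cannot be told apart.

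ATF4 is a transcription factor whose mRNA is translated more efficiently when the initiation factor eIF2 is phosphorylated, which the kinases GCN2, PERK, PKR and HRI do under different kinds of stress, amino acid shortage among them. ATF4 can also be raised through mTORC1 in growing cells. The protein pairs with members of the C/EBP family at composite DNA sites and turns on genes that make, import and charge amino acids onto tRNA. Counts measure mRNA, so neither ATF4 protein nor eIF2 phosphorylation is part of these data.

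The 9 libraries held 47016302 to 60985825 counts each, and all 9 markers of LNCaP or luminal prostate cells were present, with summed levels of 4379 to 4822 CPM (counts scaled to a common library size). Of 8 markers of fibroblasts, blood cells and endothelium, 3 exceeded 1 CPM in any library, namely COL1A1, VWF and PDGFRB, while PTPRC, CD3E, PECAM1, DCN and COL1A2 stayed below 0.0927 CPM. The sum of those 8 genes was 37.2 to 40.3 CPM before NRG1, 30.6 to 32.8 CPM after 12 h and 30.2 to 31.9 CPM after 24 h, and its part in the results was not tested. The first replicate at 0 h stood apart, with 13988 CPM summed over the 41 genes against 15086 and 15256 in the other 0 h libraries.

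To show what the promoters of these genes share, the RefSeq promoter windows (GRCh38.p14, 250 bases before to 50 bases after each start site) were searched for TGATGNAA on both strands, a form of the C/EBP-ATF composite site. Windows were found for 35 of the 41 genes, and NUPR1, SHMT2, PSPH, PYCR1, LARS1 and YARS1 had no entry. The letters occurred in a window of 17 of those 35 genes (48.6%), against 1217 of 27305 genes with an entry (4.46%). Among the tested genes with an entry it was 337 of 11953 (2.82%). Known targets of ATF4 are part of the list, so a high share follows at least in part from how the list was made. Counted by windows, since a gene can have several start sites, it was 32.2% of 59 windows of these genes against 3.62% of all 35116 windows. Transporters held the site in 5 of 8 genes and tRNA synthetases in 7 of 10, compared with 2 of 6 stress regulators, 2 of 6 synthesis enzymes and 1 of 5 stress effectors. Shown here are the 8 genes with a site whose mRNA was higher at 24 h than at 12 h, and AARS1, which holds a site and did not pass that test. Each line reads 5′ to 3′ on the gene's own strand, with the site in capitals, as TGATGNAA or as its reverse complement TTNCATCA.
ASNS, chr7:97872458-97872487, minus strand: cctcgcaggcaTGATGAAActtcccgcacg
SLC7A1, chr13:29595663-29595692, minus strand: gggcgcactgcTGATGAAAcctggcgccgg
SLC38A1, chr12:46266502-46266531, minus strand: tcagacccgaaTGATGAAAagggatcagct
CEBPG, chr19:33374060-33374089, plus strand: cgcgcggcgtcTGATGCAAcctgccggcaa
CHAC1, chr15:40953251-40953280, plus strand: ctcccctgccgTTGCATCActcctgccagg
CARS1, chr11:3057407-3057436, minus strand: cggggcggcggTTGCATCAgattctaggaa
IARS1, chr9:92293692-92293721, minus strand: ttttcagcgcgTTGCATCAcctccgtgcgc
MARS1, chr12:57488053-57488082, plus strand: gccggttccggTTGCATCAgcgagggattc
AARS1, chr16:70289675-70289704, minus strand: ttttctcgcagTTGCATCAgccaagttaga

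ASNS, SLC7A1 and SLC38A1 share the 8 letters TGATGAAA, whereas the other 6 carry TGATGCAA on one strand or the other, as do 11 of all 17 sites. The first base of the sites lay between 209 bases before and 37 bases after the start site, with 13 of 17 beginning before it. Those of CARS1, SLC38A1, MARS1 and SLC1A4 began fewer than 8 bases before the start site and so reached or crossed it. A match of letters is a description of the window and not evidence that a factor was bound.

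At 12 h the 41 genes were split, while at 24 h most that had changed were higher. By edgeR's quasi-likelihood test with an adjusted p of at most 0.05, 5 genes were higher and 7 lower at 12 h than at 0 h, against 10.6% of all 19250 genes tested that were higher and 8.16% that were lower (18.7% in either direction). At 24 h against 0 h, 20 genes were higher and 2 lower, where the background was 11.6% higher and 9.48% lower (21.1% in either direction). At 24 h against 12 h, 15 genes were higher and 0 lower, against 3.03% higher and 3.05% lower (6.08% in either direction). Among genes of the same range of abundance, the shares were 20.6% higher and 13.5% lower after 12 h, 20.6% and 15.1% after 24 h, and 5.55% and 6.18% between these times. All 3 libraries of the later time were above all 3 of the earlier one in 5 genes at 12 h (17.5% of all tested genes), 20 at 24 h against 0 h (17.3%) and 27 from 12 to 24 h (12.1%), and below them in 6 (15.3%), 3 (16.2%) and 1 (12.3%). Behind the 0 lower genes, 1 of 41 (ALDH18A1) was lower at an unadjusted p under 0.05, and DESeq2 called 0 lower and 16 higher.

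The changes were small. None of the 41 genes passed a fold change of 1.5 in any comparison, which 2.37%, 3.31% and 0.452% of all tested genes did at 12 h, at 24 h and over the later 12 h in turn, and the largest fold was 1.31. The median log2 fold change of the 41 genes was −0.01 after 12 h, 0.10 after 24 h and 0.09 between these times, where that of all genes was within 0.01 of 0 in each. Over the 3 times together, 27 of 41 genes differed, against 25.1% of all genes. In 9 genes the mRNA was higher at 24 h than at both earlier times without passing at 12 h (SESN2, ASNS, PSAT1, PSPH, MTHFD2, SLC7A1, SLC38A1, IARS1 and MARS1), and 4 genes fell at 12 h and rose again from 12 to 24 h (CEBPG, PYCR1, SLC6A9 and CARS1). How many of all tested genes had either pattern was not counted.

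Some of these counts rested on single libraries. The shares of all tested genes given above are from the fit with all 9 libraries, and those of the fits below are not given. Without the first 0 h replicate, 14 genes were lower at 12 h, of which AARS1, PHGDH, SLC7A5, SLC1A4, PSAT1, WARS1 and CEBPB had not been called with it. At 24 h against 0 h 13 were then higher and 5 lower, with AARS1, PHGDH and WARS1 among the lower. Between 12 and 24 h, 8 genes stayed called higher without the third 12 h replicate and 8 without the second 24 h replicate. ASNS, PSAT1, PSPH, MTHFD2, SLC7A1, SLC38A1 and CHAC1 were called higher at 24 h than at 12 h in each of the 15 other settings run at the same threshold.

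**Figure D1:**
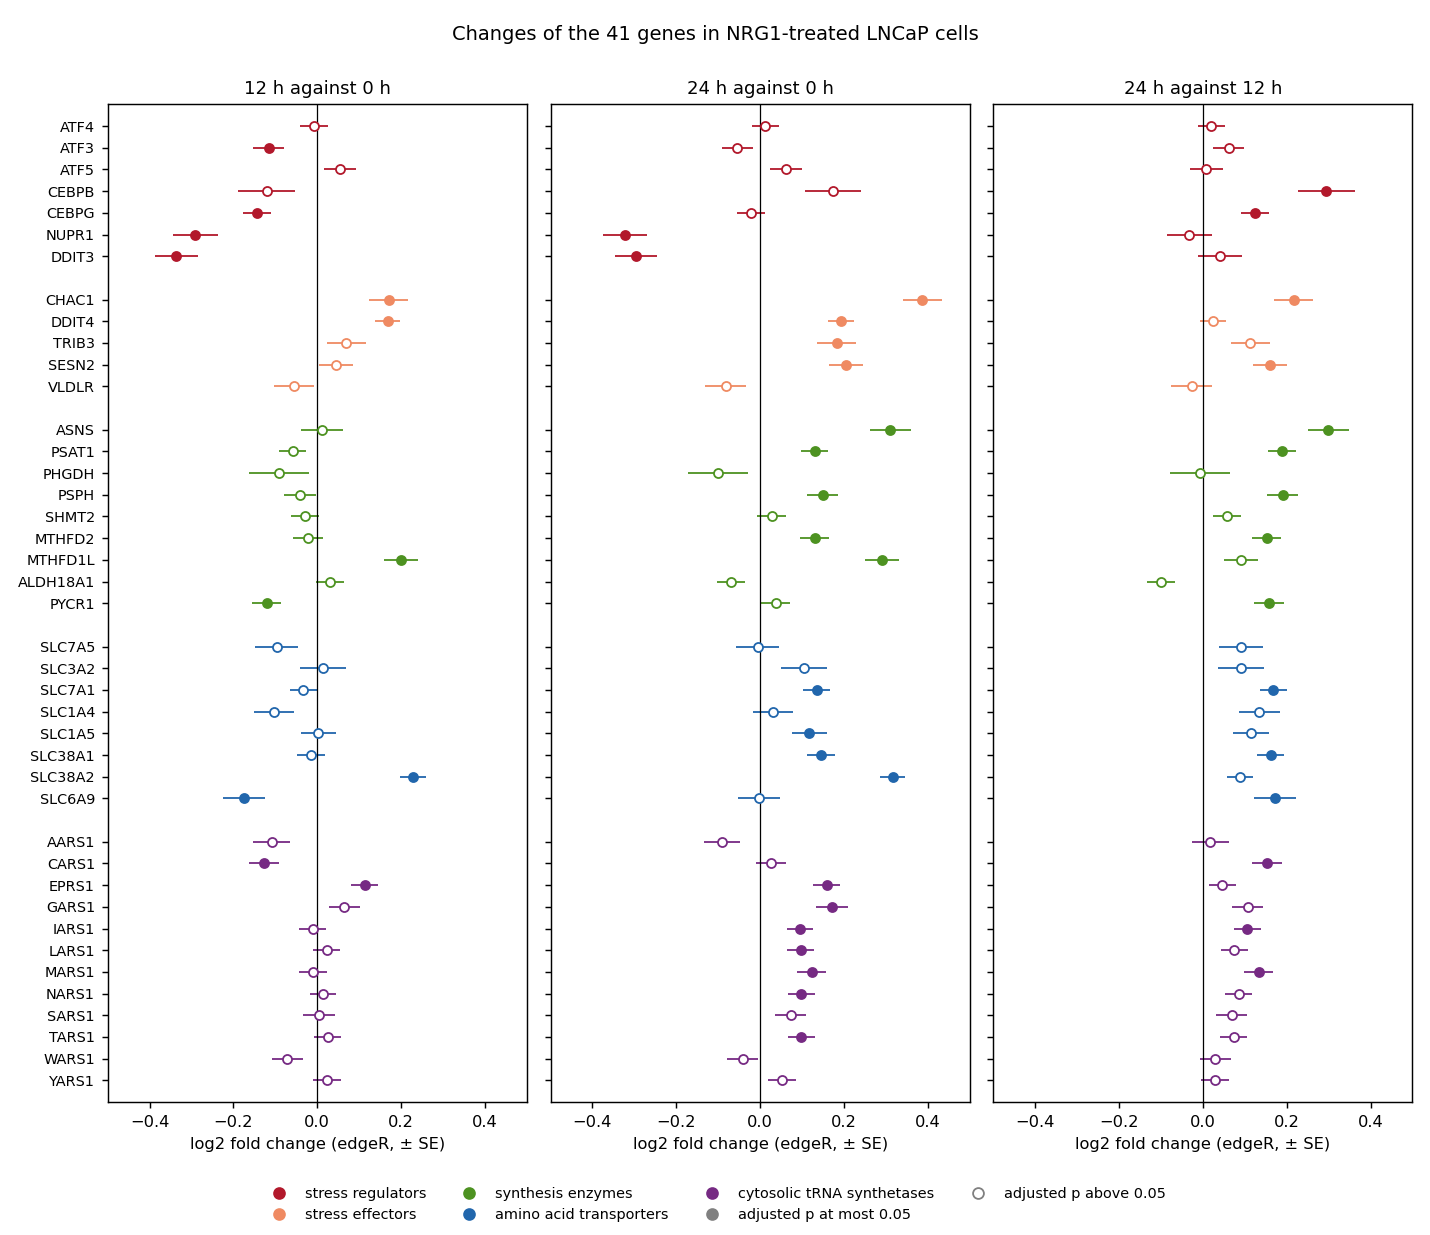
Log2 fold change of each of the 41 genes in the 3 comparisons, with bars of 1 SE from edgeR; filled points have an adjusted p of at most 0.05 and colours mark the groups of genes. Points of the 24 h against 12 h panel lie to the right of 0 for 37 of 41 genes, and the point farthest from 0 is CHAC1 at 24 h against 0 h, at 0.39. In the 24 h against 12 h comparison, 9692 of all 19250 genes tested were above 0.

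ATF4 mRNA did not differ detectably among the 3 times. It was also the most abundant of the 41 genes per kilobase of transcript at 0 h, with 905 CPM per kb, ahead of DDIT4 with 824. ATF4 (ENSG00000128272.17, chromosome 22, 39519695-39522683, GRCh38) had 1206, 1309 and 1338 CPM at 0 h, 1294, 1290 and 1248 at 12 h and 1295, 1293 and 1299 at 24 h. The 0 h libraries spanned more than the range of the later ones, which lay inside it. The log2 fold change was 0.01 ± 0.03 (SE) at 24 h against 0 h (edgeR adjusted p = 0.847), with a 95% interval from −0.06 to 0.08.

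Among the other stress regulators, DDIT3 and NUPR1 fell. DDIT3 (ENSG00000175197.13, chromosome 12, 57516588-57521737) encodes CHOP, a pro-apoptotic transcription factor of the stress response. It had 50.8, 60.7 and 60.6 CPM at 0 h, 45.8, 46.1 and 44.4 at 12 h, and 45.4, 47.3 and 47.5 at 24 h. All 6 later libraries were below all 3 libraries at 0 h, and the 0 h libraries spread the most. DDIT3 fell by 20.8% at 12 h (log2 fold change −0.34 ± 0.05 SE, edgeR adjusted p = 1.34e-05) and by 18.5% at 24 h (−0.30 ± 0.05, edgeR adjusted p = 6.12e-05). DDIT3 overlaps MARS1 and MBD6 on the opposite strand, MARS1 has 616% of its counts, and the strand setting of the counting is not given in the sources used here, so reads of these genes cannot be told apart where they overlap.

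NUPR1 (ENSG00000176046.9, chromosome 16, 28532708-28539008), a small nuclear protein induced by stress, had 151, 165 and 144 CPM at 0 h, 136, 121 and 119 at 12 h, and 117, 124 and 127 at 24 h. Its 0 h libraries did not overlap with the later ones. The log2 fold change was −0.29 ± 0.05 at 12 h (edgeR adjusted p = 0.00087) and −0.32 ± 0.05 at 24 h (edgeR adjusted p = 0.000287). From 12 to 24 h neither gene moved beyond its spread, with −0.03 for NUPR1 and 0.04 for DDIT3 on the log2 scale.

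The remaining regulators are basic leucine zipper factors. CEBPG, a dimer partner of ATF4, fell at 12 h by 0.14 on the log2 scale (edgeR adjusted p = 0.00164) and rose by 0.12 from 12 to 24 h (edgeR adjusted p = 0.0205). CEBPB rose from 12 to 24 h, by 0.29 ± 0.07 (edgeR adjusted p = 0.0282), with 76.6 to 84.3 CPM at 12 h and 93.8 to 103.6 CPM at 24 h. Against 0 h CEBPB gave −0.12 at 12 h and 0.17 at 24 h without passing, but was called lower at 12 h without the first 0 h replicate (−0.20, edgeR adjusted p = 0.000713) and higher at 24 h without the second (0.23, edgeR adjusted p = 0.0251). The rises of CEBPG and CEBPB from 12 to 24 h were lost on leaving out any of 4 libraries, the second or the third at 12 h or at 24 h. ATF3 was lower at 12 h (−0.12, edgeR adjusted p = 0.0225), and that call was lost on leaving out any of 4 libraries, among them the second 0 h replicate (−0.10, edgeR adjusted p = 0.0881). ATF5 gave 0.05 and 0.06 at 12 and 24 h against 0 h and passed in neither. In all, 4 of 7 regulators fell at 12 h and 2 at 24 h against 0 h, and 0 were called higher against 0 h by edgeR, where CEBPB at 24 h was higher at an unadjusted p under 0.05 and in DESeq2, the only 1 of the 7.

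**Figure D2:**
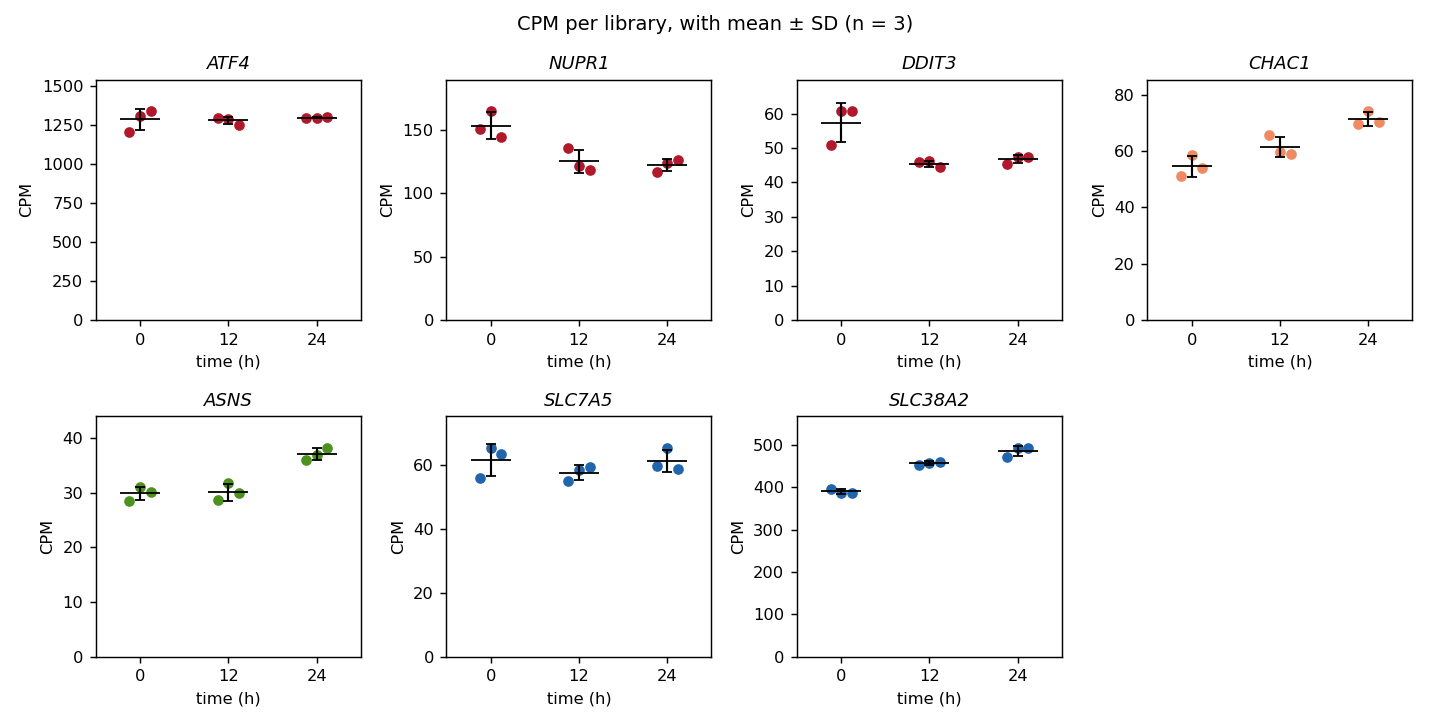
CPM of ATF4, NUPR1, DDIT3, CHAC1, ASNS, SLC7A5 and SLC38A2 in each library at 0, 12 and 24 h; points are libraries, the horizontal line is the mean and the bar the SD (n = 3). ASNS stays near 30 CPM at 0 and 12 h and is at 36.1 to 38.2 CPM at 24 h, while SLC38A2 is already higher at 12 h and ATF4 stays level.

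The stress effectors went the other way from DDIT3 and NUPR1, with 2 of 5 higher at 12 h and 4 of 5 at 24 h against 0 h. CHAC1 (ENSG00000128965.13, chromosome 15, 40952962-40956512), an enzyme that breaks down glutathione, was the only one of the 41 genes higher in all 3 comparisons. It had 51.1, 58.6 and 54.0 CPM at 0 h, 65.5, 59.7 and 58.9 at 12 h, and 69.5, 74.2 and 70.3 at 24 h. The 3 groups did not overlap, although the highest library at 0 h was within 1 CPM of the lowest at 12 h. The log2 fold change was 0.17 ± 0.05 at 12 h (edgeR adjusted p = 0.00846), 0.39 ± 0.05 at 24 h (edgeR adjusted p = 1.11e-07) and 0.22 ± 0.05 from 12 to 24 h (edgeR adjusted p = 0.00301). The call at 12 h was lost without the first 0 h replicate (0.13, edgeR adjusted p = 0.053) and without the first 12 h replicate (0.12, edgeR adjusted p = 0.0946).

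DDIT4, an inhibitor of mTORC1 signalling, rose at 12 h and stayed there, with 1404 to 1483 CPM before NRG1, 1600 to 1641 CPM after 12 h and 1602 to 1688 CPM after 24 h. SESN2, a leucine sensor that also restrains mTORC1, was higher at 24 h against 0 h (0.20, edgeR adjusted p = 0.000321) and against 12 h (0.16, edgeR adjusted p = 0.0151). TRIB3, a pseudokinase that binds ATF4 and DDIT3, was higher at 24 h against 0 h (0.18, edgeR adjusted p = 0.00802). VLDLR, a lipoprotein receptor, had the lowest level per kilobase of the 41 genes at 0 h and gave −0.06, −0.08 and −0.03 without passing. The TRIB3 value at 24 h against 0 h was 0.12 without the first 0 h replicate and still called, leaving out the third 24 h replicate ended that call, and the SESN2 call from 12 to 24 h ended without the first or the third 12 h replicate or the second 24 h replicate.

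Among the synthesis enzymes, 5 of 9 were higher at 24 h than at 0 h and 5 of 9 higher than at 12 h, while at 12 h against 0 h only MTHFD1L was higher and only PYCR1 lower. ASNS (ENSG00000070669.17, chromosome 7, 97851677-97872542) makes asparagine from aspartate and glutamine and is a classical target of ATF4. It had 28.5, 31.0 and 30.2 CPM at 0 h, 28.6, 31.8 and 29.9 at 12 h, and 36.1, 36.8 and 38.2 at 24 h. The 0 and 12 h libraries overlapped, and all 3 libraries at 24 h were above them. ASNS was 24.0% higher at 24 h than at 0 h (0.31 ± 0.05, edgeR adjusted p = 7.87e-06) and 23.1% higher than at 12 h (0.30 ± 0.05, edgeR adjusted p = 9.01e-05). At 12 h the log2 fold change against 0 h was 0.01 ± 0.05, with a 95% interval from −0.09 to 0.11. A transcript of another annotated gene matched ASNS at 100% identity over 2374 bases, and that gene held 143 reads, 0.912% of those of ASNS. How reads fitting both genes were counted is not given in the sources used here, and their part in the ASNS values was not tested.

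Serine is made from a glycolytic intermediate by PHGDH, PSAT1 and PSPH in turn. PSAT1 and PSPH, the later enzymes, rose from 12 to 24 h, by 0.19 (edgeR adjusted p = 0.000159) and 0.19 (edgeR adjusted p = 0.00102). PHGDH, the first enzyme, gave −0.09 at 12 h, −0.10 at 24 h and −0.01 from 12 to 24 h and did not pass with all 9 libraries, where it spread from 958 to 1141 CPM at 0 h. Without the first 0 h replicate, its lowest library at that time, PHGDH was called lower at 12 h (−0.16, edgeR adjusted p = 0.00964) and at 24 h (−0.17, edgeR adjusted p = 0.00537). PSAT1 at 12 h then went from −0.06 to −0.09 and was called lower as well (edgeR adjusted p = 0.0415). A difference between PHGDH and the other enzymes of the pathway was not tested.

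SHMT2, MTHFD2 and MTHFD1L carry out mitochondrial one-carbon steps. MTHFD1L was higher at both times against 0 h (0.20, edgeR adjusted p = 0.000414, and 0.29, edgeR adjusted p = 9.63e-07). MTHFD2 was higher at 24 h against 0 h by 0.13 (edgeR adjusted p = 0.00554), which dropped to 0.09 without the first 0 h replicate (edgeR adjusted p = 0.0501), and against 12 h by 0.15 (edgeR adjusted p = 0.00495). SHMT2 gave −0.03, 0.03 and 0.06 and did not pass. Of the proline enzymes, PYCR1 fell at 12 h by 0.12 (edgeR adjusted p = 0.0114) and rose by 0.16 from 12 to 24 h (edgeR adjusted p = 0.00325), whereas ALDH18A1, which acts earlier in the pathway, gave 0.03, −0.07 and −0.10. The PYCR1 call at 12 h was lost without the second 0 h or the third 12 h replicate, and that from 12 to 24 h without the second 24 h replicate.

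Of the 8 transporters, 4 were higher at 24 h than at 0 h, namely SLC38A2, SLC38A1, SLC7A1 and SLC1A5. SLC38A2 (ENSG00000134294.14, chromosome 12, 46358188-46372773), a sodium-coupled carrier of glutamine and other neutral amino acids, was already higher at 12 h. It had 397, 387 and 387 CPM at 0 h, 453, 458 and 461 at 12 h, and 472, 493 and 493 at 24 h. The 3 groups did not overlap and the replicates lay close together. The log2 fold change was 0.23 ± 0.03 at 12 h (edgeR adjusted p = 5.13e-07) and 0.32 ± 0.03 at 24 h (edgeR adjusted p = 3.24e-10), and the step from 12 to 24 h was 0.09 ± 0.03 (edgeR adjusted p = 0.082).

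SLC38A1, its close relative, and SLC7A1, a carrier of cationic amino acids, did not pass at 12 h and rose from 12 to 24 h by 0.16 (edgeR adjusted p = 0.00155) and 0.17 (edgeR adjusted p = 0.000776). SLC6A9, a glycine transporter, fell at 12 h by 0.17 (edgeR adjusted p = 0.0152) and rose by the same size from 12 to 24 h (edgeR adjusted p = 0.0417). The first of these calls was lost on leaving out any of 4 libraries, with −0.10 left without the third 0 h replicate (edgeR adjusted p = 0.141), and the second on leaving out any of 5 libraries or with the replicate number as a block. SLC1A5, a glutamine carrier, was close to the threshold at 24 h (0.12, edgeR adjusted p = 0.0489) and did not pass without the first 0 h replicate (0.06, edgeR adjusted p = 0.277), without the second or the third 24 h replicate, or with trends of GC content and transcript length removed.

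SLC7A5 (ENSG00000103257.9, chromosome 16, 87830023-87869507) and SLC3A2 form the heterodimer that imports leucine and other large neutral amino acids. SLC7A5 had 55.8, 65.3 and 63.4 CPM at 0 h, 54.9, 58.5 and 59.2 at 12 h, and 59.6, 65.2 and 58.8 at 24 h. The 3 groups overlapped. The log2 fold change was −0.10 ± 0.05 at 12 h (edgeR adjusted p = 0.218) and −0.01 ± 0.05 at 24 h (edgeR adjusted p = 0.961), the latter with a 95% interval from −0.11 to 0.10, and without the first 0 h replicate the value at 12 h was −0.16 (edgeR adjusted p = 0.0112). SLC3A2 gave 0.01, 0.11 and 0.09 and did not pass, nor did SLC1A4, a carrier of small neutral amino acids, with −0.10, 0.03 and 0.13. Without the first 0 h replicate SLC1A4 was called lower at 12 h (−0.16, edgeR adjusted p = 0.0112). All 8 transporters had a positive log2 fold change from 12 to 24 h, between 0.09 and 0.17, of which 3 passed. Positive values in that comparison were held by 9692 of all 19250 genes tested and by 7 of 12 further amino acid transporters listed below.

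The 12 cytosolic tRNA synthetases, which attach amino acids to their tRNAs, had log2 fold changes between −0.13 and 0.17. At 12 h only EPRS1, the fused enzyme for glutamate and proline, was higher (0.11, edgeR adjusted p = 0.01) and only CARS1, for cysteine, lower (−0.13, edgeR adjusted p = 0.00865). At 24 h against 0 h, 7 of 12 were higher, with GARS1 at 0.17 (edgeR adjusted p = 0.000851), EPRS1 at 0.16 (edgeR adjusted p = 0.000274), MARS1 at 0.12 (edgeR adjusted p = 0.00697) and TARS1, LARS1, NARS1 and IARS1 all at about 0.10. Between 12 and 24 h, CARS1, MARS1 and IARS1 rose by 0.15, 0.13 and 0.11. All 12 values in that comparison were positive, the lowest being 0.02 for AARS1. Of all 19250 genes tested, 9692 were positive there. So were 4 of 11 other cytosolic synthetases and scaffold proteins and 3 of 17 mitochondrial synthetases, both listed below. AARS1, SARS1, WARS1 and YARS1 passed in none of the 3 comparisons with all 9 libraries.

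Without the first 0 h replicate, IARS1, LARS1, MARS1, NARS1 and TARS1 were no longer called at 24 h against 0 h, and EPRS1 and GARS1 were. AARS1 was then called lower at 12 h (−0.16, edgeR adjusted p = 0.000702) and 24 h (−0.14, edgeR adjusted p = 0.00202), as was WARS1 (−0.12, edgeR adjusted p = 0.0081, and −0.09, edgeR adjusted p = 0.0456). AARS1 at 12 h was called lower in 5 of the 15 other settings in all and WARS1 in 2. IARS1, LARS1, NARS1 and TARS1 were also lost at 24 h without the second 24 h replicate or the third 24 h replicate, IARS1, LARS1 and NARS1 without the second 0 h replicate, and LARS1 with all genes that had a count. Without the third 0 h replicate, GARS1 was called higher at 12 h (0.12, edgeR adjusted p = 0.0235) and SARS1 at 24 h (0.11, edgeR adjusted p = 0.0488). IARS1 was also lost from 12 to 24 h on leaving out any of the 6 libraries, CARS1 without the third 12 h replicate, and MARS1 without the third 12 h or the second 24 h replicate. The CARS1 call at 12 h was lost without the third 0 h replicate or the third 12 h replicate.

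Summed over each group of genes, the mRNA of the stress effectors rose to 110% of its 0 h mean at 12 h and 114% at 24 h. The transporters stood at 102% and 111%, the tRNA synthetases at 100.03% and 105%, the synthesis enzymes at 96.4% and 102%, and the stress regulators at 96.1% and 98.9%. For the transporters all 3 libraries at 24 h (2098 to 2174 CPM) were above all 6 earlier ones (1841 to 1982 CPM), whereas the synthetases at 24 h (5380 to 5534 CPM) overlapped with 0 h (4921 to 5457 CPM). No test was run on the sums. They weigh abundant genes most, and ATF4 and DDIT4 make up most of the sums of their groups.

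**Figure D3:**
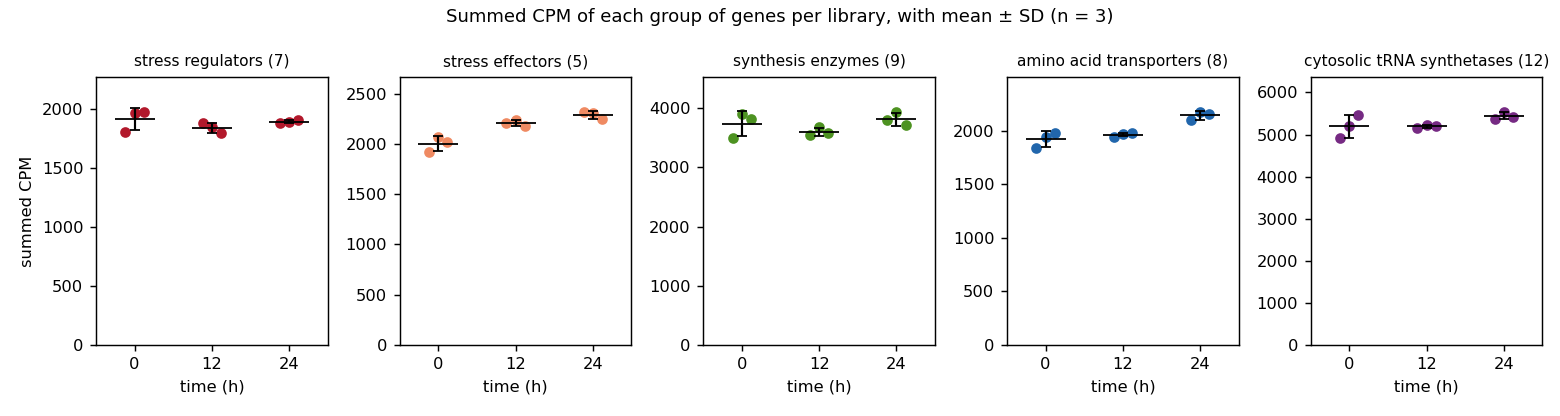
Summed CPM of each group of genes in each library at 0, 12 and 24 h; points are libraries, the line is the mean and the bar the SD (n = 3), and every axis starts at 0. In each group the first 0 h replicate (leftmost point) is the lowest library at 0 h, and the transporters at 24 h lie above all earlier libraries.

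Read against the promoter sites shown above, 8 of the 17 genes with a site were higher at 24 h than at 12 h, with a median log2 fold change of 0.11, and 5 of the 18 genes without a site were, with a median of 0.06. The genes with a site ranged from 0.02 (AARS1) to 0.30 (ASNS), and those without from −0.10 (ALDH18A1) to 0.29 (CEBPB), so the ranges overlapped. At 12 h against 0 h, 2 of 17 genes with a site were higher and 3 lower, compared with 3 and 2 of 18 without. The search was added after the fold changes had been seen, and no test of the site was made.

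**Figure D4:**
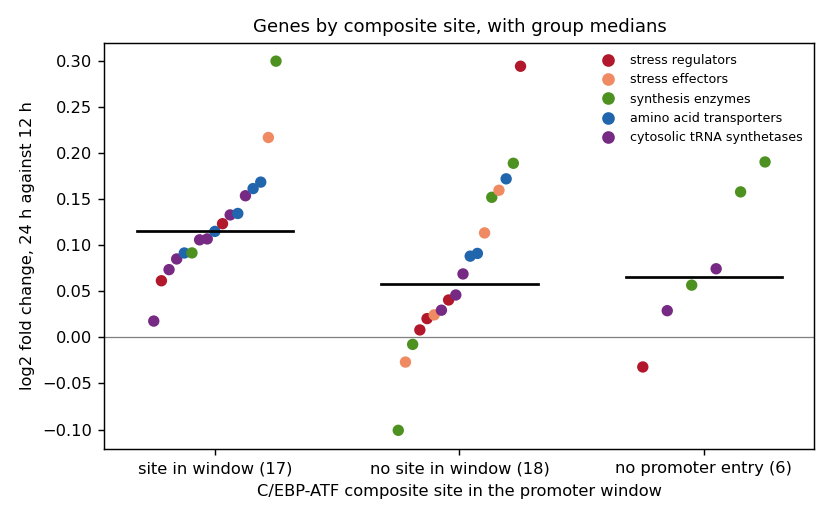
Log2 fold change at 24 h against 12 h (edgeR) of the 41 genes, by whether a promoter window holds TGATGNAA on either strand; each point is a gene, coloured by its group, and lines are medians. Genes with a site (17) have a median of 0.11 and genes without one (18) of 0.06, and the ranges overlap.

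Further genes of the pathway were taken from lists chosen by role. Their counts stand against 10.6% of all tested genes higher and 8.16% lower at 12 h. The shares of all tested genes were 11.6% and 9.48% at 24 h against 0 h, and 3.03% and 3.05% over the later 12 h. Of 16 genes for eIF2, its kinases, its phosphatase subunits and eIF2B, 6 were higher and 1 lower at 12 h, 7 and 2 at 24 h against 0 h, and 3 and 1 over the later 12 h. PPP1R15A, the stress-induced subunit that directs the phosphatase to eIF2, rose by 0.29 at 12 h and 0.55 at 24 h against 0 h (edgeR adjusted p = 0.00906 and 1.51e-06), where the highest of the 41 genes was at 0.39. EIF2AK3, which encodes the kinase PERK, fell by 0.31 and 0.29 (edgeR adjusted p = 2.38e-06 and 5.59e-06).

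Of the 11 other cytosolic synthetases and scaffold proteins, 6 were higher at 12 h, 4 at 24 h against 0 h, and 0 in either direction between 12 and 24 h, where 1 was higher at an unadjusted p under 0.05 and DESeq2 called 0. FARSB, a subunit of the enzyme for phenylalanine, rose by 0.29 at 12 h and 0.23 at 24 h. Of 17 mitochondrial synthetases, 7 were higher at 12 h. At 24 h against 0 h, 2 were higher (11.8%) and 1 lower (5.88%), close to the shares of all tested genes. From 12 to 24 h 4 fell and 0 rose (0 also in DESeq2 and at an unadjusted p under 0.05), HARS2 by 0.24 (edgeR adjusted p = 4.51e-05). Whether the lists differ from each other was not tested.

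Of 12 further amino acid transporters, 7 were higher and 1 lower at 12 h, and 7 were higher at 24 h against 0 h, led by SLC7A2, a carrier of cationic amino acids, with 0.30 and 0.44. From 12 to 24 h, 3 were higher and 1 lower, and SLC7A11, the cystine carrier, was among the higher ones with 0.35 (edgeR adjusted p = 0.0429). Against 0 h, SLC7A11 gave −0.25 at 12 h and 0.10 at 24 h without passing (edgeR adjusted p = 0.0667 and 0.442). Its means were 555 CPM at 0 h, 467 at 12 h and 595 at 24 h. Of 15 further enzymes of serine, one-carbon, proline and glutamine metabolism, 5 were higher and 1 lower at 12 h, 7 and 1 at 24 h against 0 h, and 3 and 1 over the later 12 h. Of 12 other genes linked to ATF4, 1 was higher and 6 lower at 12 h, 4 and 3 at 24 h against 0 h, and 4 and 0 over the later 12 h, where 0 were lower by DESeq2 or at an unadjusted p under 0.05 as well. INHBE, a secreted inhibin subunit, rose by 0.52 from 12 to 24 h (edgeR adjusted p = 0.00083), from a mean of 5.85 to 8.41 CPM, the lowest levels of that list. At 12 h against 0 h, HERPUD1 fell by 0.29 (edgeR adjusted p = 0.00862) and GDF15 rose by 0.29 (edgeR adjusted p = 4.77e-09).

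The XBP1 and ATF6 arms of the unfolded protein response, which raise chaperones of the endoplasmic reticulum, fell where they changed against 0 h. Of 10 genes, 8 were lower at 12 h and 7 at 24 h, and 0 were higher in edgeR, DESeq2 or at an unadjusted p under 0.05. HSP90B1 fell by 0.40 and PDIA4 by 0.44 at 24 h (edgeR adjusted p = 1.8e-12 and 1.51e-06). From 12 to 24 h, 1 was higher and 1 lower.

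**Figure D5:**
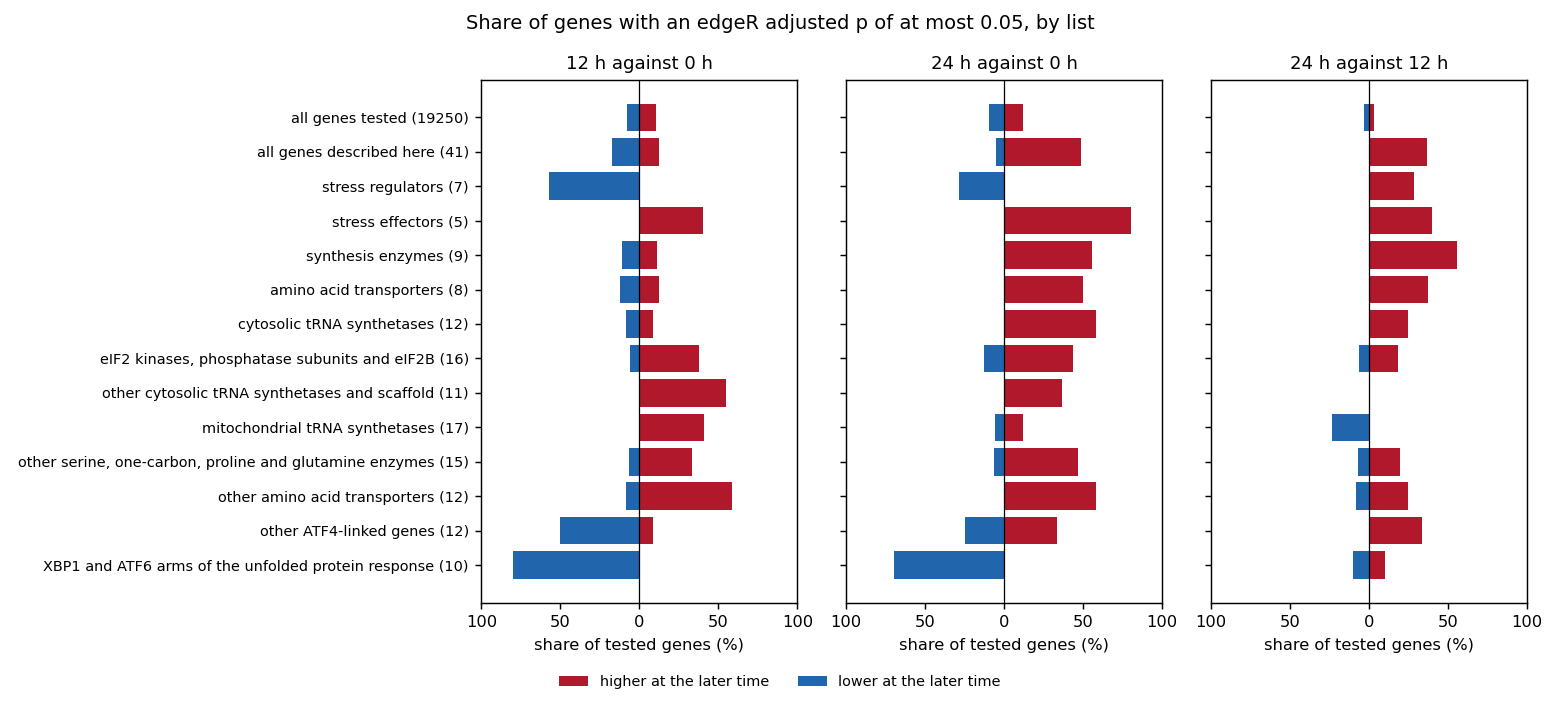
Share of each list of genes with an edgeR adjusted p of at most 0.05 that was higher (right) or lower (left) at the later time, in the 3 comparisons, with the number of genes tested in parentheses. At 24 h against 12 h the 41 genes have 15 higher and 0 lower, where 3.03% and 3.05% of all tested genes are higher and lower.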

How the data were processed

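RNA of LNCaP cells was sequenced as mRNA libraries in read pairs. Per the study's methods, the authors trimmed reads with Cutadapt, mapped them to GRCh38.p13 with STAR and assigned them to genes with featureCounts. The authors deposited raw counts as whole numbers, 1 column per library, with no normalization or pooling. A further 14 columns are empty. Strandedness and the treatment of reads with several hits are not given in the sources used here. The methods state that 1 LNCaP replicate at time 0 was left out for quality without naming its treatment. The study's captions give a range of replicate numbers only where ASPN (asporin) libraries enter and a single number for NRG1, and all 3 libraries at 0 h were used here.

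Groups and replicate numbers came from the sample titles (3 groups of 3). Genes were kept with filterByExpr (19250 of 37351, with all 41 described genes among them), scaled by the trimmed mean of M values (TMM) and tested in R 4.3.3 by edgeR 4.0.16, using robust quasi-likelihood over the 9 libraries and without covariates. P-values were adjusted by Benjamini-Hochberg over all tested genes, and a gene was called at an adjusted p of at most 0.05. CPM use TMM-scaled library sizes, and standard errors come from the F statistic. Levels per kilobase use the length of the canonical transcript in GENCODE. The labels name biological replicates, and the study's methods describe cells plated in replicate wells. The p-values therefore measure the spread between cultures of 1 line. Depth of 47016302 to 60985825 counts per library bounds counting error only. No pair of libraries agreed within sampling noise (chi-square per degree of freedom of at least 3.15). On simulated data with the depth of these libraries, 94% of genes changed 1.25-fold between 0 and 12 h were recovered. In that simulation the changed genes had high counts, all genes shared 1 spread and no library stood apart. Changes below 1.25-fold, as most of those called here were, were not simulated, so their recovery is not known.

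The genes and lists were chosen with earlier results of these data known. Values of every library are given for genes that passed with an absolute log2 fold change of at least 0.3, and for ATF4, ASNS, DDIT3 and SLC7A5. Up to 2 rises and 2 falls were named per further list. DESeq2 1.42.0, other scalings, filters, thresholds, a replicate block and leaving out each library were run as alternatives.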

Additional observations from a re-analysis of the deposited data

Results flagged for a closer look

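Of the 41 genes, 15 stood out because their level at 24 h differed from that at 12 h when the difference itself was tested (edgeR, adjusted p of at most 0.05). On the log2 scale the values were 0.30 for ASNS, 0.29 for CEBPB, 0.22 for CHAC1, 0.19 for PSAT1, 0.19 for PSPH, 0.17 for SLC6A9, 0.17 for SLC7A1, 0.16 for SLC38A1, 0.16 for SESN2, 0.16 for PYCR1, 0.15 for CARS1, 0.15 for MTHFD2, 0.13 for MARS1, 0.12 for CEBPG and 0.11 for IARS1. All 15 were higher at 24 h, and all 3 libraries at 24 h were above all 3 at 12 h in each, which held for 27 of the 41 genes and 12.1% of all genes tested. Mitochondrial reads made up 5.70% of counts before NRG1 on average, 5.48% after 12 h and 5.20% after 24 h, and their part in these differences was not tested.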

How the results depend on the processing

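With a fold change of at least 1.5 added, all 5 counts above 0 became 0. DESeq2, another scaling, other low-count filters and the removal of GC content and length trends kept each count within 1.5 times, and with only the 6 libraries compared 1 gene (ALDH18A1) was lower at 24 h against 12 h instead of 0. Leaving out 1 library gave 4 to 6 genes higher and 3 to 14 lower at 12 h, 13 to 21 higher and 2 to 5 lower at 24 h against 0 h, and 8 to 13 higher at 24 h against 12 h. The shares of all tested genes in those fits are not given here. The extremes were 14 and 13, with 5 lower, without the first 0 h replicate, 3 lower at 12 h without the third 12 h replicate, 4 without the second or the third 0 h replicate, and 8 higher without the third 12 h or the second 24 h replicate. Each of the described genes called in the fit with all libraries kept its sign in that comparison in all 15 settings. The signs of genes in the further lists were not checked over these settings. WARS1 at 24 h against 0 h, called lower only without the first 0 h replicate, ranged from −0.0931 to 0.0053. Values near 0 changed sign: ASNS at 12 h was −0.037 with the GC and length trend removed and −0.0261 to 0.0494 over the libraries left out, ATF4 at 12 h −0.0468 to 0.0255 and at 24 h against 0 h −0.0272 to 0.0472, SLC7A5 at 24 h against 0 h −0.0683 to 0.0411, and NUPR1 from 12 to 24 h −0.0707 to 0.0315.

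With the replicate number as a block, the counts were 5 higher and 8 lower at 12 h, 21 and 2 at 24 h against 0 h, and 15 and 0 between 12 and 24 h, with SLC6A9 lost in the last. Libraries with the same number shared only that number, since their deviations correlated at −0.04 to 0.03 in 9 pairs and 2 of 9 libraries correlated best with their own number. The GC trend was chosen after seeing the data. Reads were counted without known strand, and 24 of the 41 genes overlap another gene, 6 of them one with over 10% of their counts (DDIT3, ATF5, SLC6A9, VLDLR, SHMT2 and MARS1).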

Other observations

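The letters TGATGNAA were also looked up in the promoter windows of the other tested genes that had a promoter entry. Of 320 such genes with the site, 8.12% were higher and 2.5% lower at 24 h than at 12 h, against 3.35% and 3.90% of 11598 genes without it, and the median log2 fold changes were 0.02 and −0.00. At 24 h against 0 h, 16.9% with the site were higher and 9.06% lower, against 14.3% and 11% without. At 12 h against 0 h the shares were 13.4% and 10% with the site and 13.6% and 9.5% without. No test was made on these shares.

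Near-identical copies (at least 95% identity over 150 bases or more) were found for 11 of the 41 genes. ATF4P3 and ATF4P4, processed copies of ATF4, held 518 and 140 reads over all libraries, or 0.0828% and 0.0224% of the reads of ATF4.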
